A study of Mus musculus with 12 samples.

Results

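The genes described here encode 9 secreted or shed signals that attract microglia, the resident macrophages of the brain, or keep them alive: Csf1, Il34, Tgfb1, Ccl2, Ccl3, Ccl4, Cxcl12, Cx3cl1 and Mif. They were chosen by symbol, and all 9 were found among the 54735 gene symbols listed for every library. RNA was sequenced from the pallium, from which the cerebral cortex develops, of 12 mouse embryos of strain C57/Bl6 at stage E13.5, with 4 embryos in each of 3 genotypes. Control embryos had the genotype Rnu11wt/flx::Trp53wt/wt::Emx1-Cre+. Embryos with conditional loss of Rnu11, called cKO, had the genotype Rnu11flx/flx::Trp53wt/wt::Emx1-Cre+, and double mutants, called dKO, had the genotype Rnu11flx/flx::Trp53flx/flx::Emx1-Cre+. All 3 groups carried the Cre transgene and at least 1 floxed Rnu11 allele, so the controls are not wild type. Emx1-Cre recombines in pallial progenitors and their descendants, while microglia enter the brain from the yolk sac and lie outside that lineage. Rnu11 encodes U11, an RNA of the minor spliceosome, and Trp53 encodes p53. The comparisons ask how the signals stood when U11 was lost and how far they differed when p53 was removed as well.

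Csf1 and Il34 are ligands of the receptor Csf1r, on which microglia depend for survival and proliferation, and Tgfb1 maintains the microglial state through Tgfbr1 and Tgfbr2. Chemokines guide cells along gradients: Ccl2 acts on Ccr2, Ccl3 on Ccr1, Cxcl12 on Cxcr4 and Ackr3, and Cx3cl1, made mainly by neurons and shed from their membranes, on Cx3cr1. Mif is a cytokine that binds Cd74. Activated microglia are themselves known sources of Ccl2, Ccl3 and Ccl4, meninges are a known source of Cxcl12 in embryonic cortex, and Mif is made by many cell types.

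Values are TPM, transcript abundance per gene length scaled to a fixed sum per library, so levels of different genes can be compared, but sequencing depth is unknown and no counting interval is given. Each library lists 24574 to 29300 genes above 0. The range was 25418 to 26618 in control, 27718 to 29223 in cKO and 24574 to 29300 in dKO. Every cKO library thus lists more genes than every control library, and the part of this in members near 0 was not tested. Protein-coding genes hold 14.2 to 19.5% of the TPM, with means of 15.3% in control, 17.1% in cKO and 14.6% in dKO. The structural RNAs Rn7s2 and Rn7sk together hold 43.4 to 52.4%, with means of 48.0% in control, 48.8% in cKO and 47.7% in dKO. A shift in RNAs this abundant would move every other gene, and their part in the differences below was not tested. Rnu11 ranged from 521 to 724 TPM among controls, from 115 to 159 TPM among cKO and from 142 to 199 TPM among dKO embryos, and Trp53 between 0.920 and 1.49 TPM in dKO against 2.63 to 6.37 in control. Differences are in log2(TPM + 1), which understates the change of genes near 0, with limma's standard error and an adjusted p (Benjamini-Hochberg over all genes tested), and a gene is said to rise or fall where that p is under 0.05. The 3 members with a mean of at least 1 TPM (Csf1, Cxcl12 and Mif) were tested among the 11764 genes that pass this filter. The other 6 members were tested among all 39624 genes listed above 0 in any library. Over the 11764 genes the median difference was 0.25 for cKO minus control, -0.01 for dKO minus control and -0.26 for dKO minus cKO. Each member is therefore also given after median-ratio rescaling, 1 factor per library (0.763 to 1.14) that brings those medians to -0.00, 0.00 and 0.01, fitted over the 39624 genes. That setting was added after the data had been seen. Nothing states that the embryos came from separate litters, so the p-values measure the spread between these embryos.

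In control pallium the members spanned a wide range of levels. Mif stood at 176 ± 24.2 TPM (SD, n = 4), Cxcl12 at 2.43 ± 0.780 TPM and Csf1 at 0.822 ± 0.271 TPM, and no control embryo broke that order between neighbouring genes. Below Csf1 came Cx3cl1, Il34, Tgfb1, Ccl3, Ccl2 and Ccl4, at means from 0.370 TPM down to 0.0190 TPM, and each overlapped the next in this order.

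In cKO pallium Csf1, Ccl2, Ccl3 and Ccl4 rose, and in dKO the same 4 lay below cKO. Of the 9 members, 4 were higher in cKO than in control and 0 lower (Csf1, Ccl2, Ccl3 and Ccl4, limma over the 39624 genes), where 11.3% of all genes were called, 11% as higher. The 4 were also called after median-ratio rescaling, where 2.13% of all genes were called, 1.5% as higher, but without control embryo 1 the rescaled count was 3 and Ccl2 was not among them. With the filter, 1 of 3 members (Csf1) was called, where 35.4% of all genes were. Csf1 passed that filter only through cKO, as its means in control and dKO (0.822 and 0.957 TPM) were under 1 TPM. Between dKO and control 0 of 9 members were called by limma, as deposited or rescaled, where 1.35% and 2.15% of all genes were, and 2 members (Cxcl12 and Ccl3) had an unadjusted p under 0.05 in both fits. With the filter it was 0 of 3, where 5.19% of all genes were called. From cKO to dKO 4 of 9 fell (Csf1, Ccl2, Ccl3 and Ccl4), where 14.8% of all genes were called, 14.5% as lower. After rescaling 3 of 9 fell (Csf1, Ccl3 and Ccl4), where 2.17% of all genes were called, 1.67% as lower. With the filter it was 1 of 3 (Csf1), where 39.4% were called. All 4 cKO embryos lay above all 4 controls in 5 of 9 members (the 4 called and Tgfb1), where 17.8% of the 39624 genes had groups that did not overlap, 17.4% with cKO higher. All 4 dKO embryos lay below all 4 cKO embryos in 5 of 9 (the 4 called and Il34), where 17.6% of genes did not overlap, 17.2% with dKO lower. The median difference of the 9 members was 0.30 for cKO minus control, 0.04 for dKO minus control and -0.26 for dKO minus cKO, beside medians over the 39624 genes of 0.04, 0.00 and -0.04. After rescaling the members' medians were 0.16, 0.04 and -0.15, beside 0.01, 0.00 and -0.00 over all genes.

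**Figure D1:**
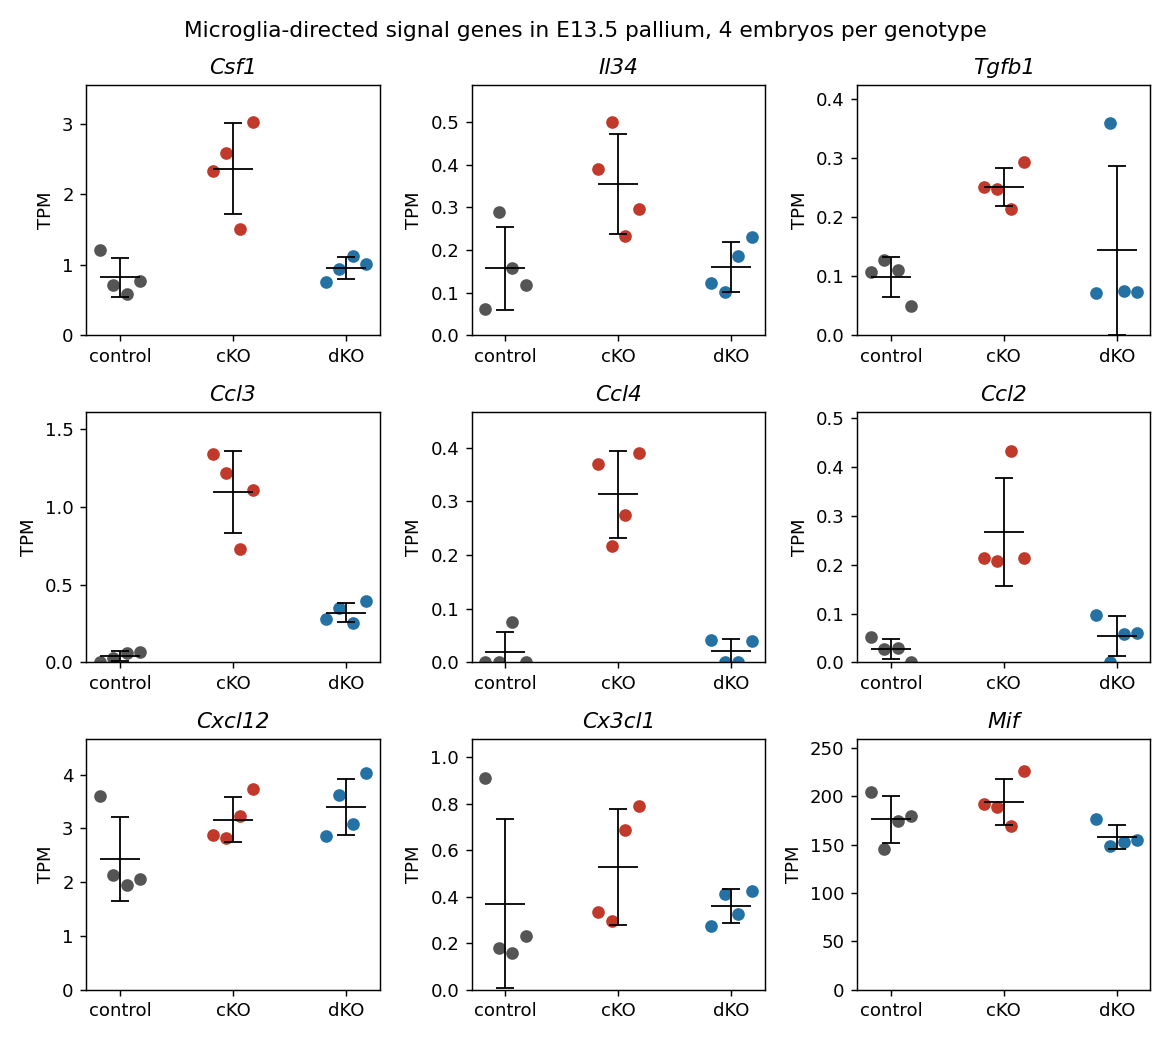
TPM of the 9 members in each embryo, by genotype (points, 4 embryos each), with the group mean as a long bar and the SD as whiskers; each panel has its own linear axis starting at 0. Csf1, Ccl2, Ccl3, Ccl4 and Tgfb1 have all 4 cKO embryos above all control embryos, while Cxcl12, Cx3cl1 and Mif overlap between all groups.

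The promoters of the members with the highest fitted rises among the growth factor ligands and the chemokines, Csf1 and Ccl3, are shown because both genes moved in the same direction between the genotypes. RefSeq's promoter table (build GRCm38.p6) held 6 of the 9 members: Csf1, Cx3cl1, Cxcl12, Ccl3, Tgfb1 and Mif. Each window is the 250 bases before the start of transcription on the gene's own strand, at chr3:107760470-107760719 (minus strand) for Csf1 and chr11:83649379-83649628 (minus strand) for Ccl3. Capitals mark the only match found in them, to the kappa B consensus of NF-kappa B factors.
Csf1: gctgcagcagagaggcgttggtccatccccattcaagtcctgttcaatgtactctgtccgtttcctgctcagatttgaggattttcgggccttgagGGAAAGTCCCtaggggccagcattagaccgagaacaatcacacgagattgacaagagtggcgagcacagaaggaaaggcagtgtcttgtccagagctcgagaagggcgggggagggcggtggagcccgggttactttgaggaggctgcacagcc
Ccl3: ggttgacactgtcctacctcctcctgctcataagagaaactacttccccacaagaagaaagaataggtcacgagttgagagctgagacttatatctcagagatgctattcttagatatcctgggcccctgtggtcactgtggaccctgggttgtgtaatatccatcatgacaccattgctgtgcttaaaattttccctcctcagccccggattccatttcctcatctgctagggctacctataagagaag
Both strands were searched for TATAAA, for the AP-1 motif TGANTCA, for the kappa B consensus and for the p53 half-site consensus. The Csf1 match lies at -154 to -145 from the start, and no match to any of these was found in the Ccl3 window. Among the 4 other members with a promoter there, Tgfb1 has a kappa B match at -140 to -131 and Cx3cl1 a TATAAA at -6 to -1. Of 32851 mouse promoters of this length, 12.4% hold TATAAA, 6.75% the AP-1 motif, 7.25% a kappa B match and 7.13% a p53 half-site. A match is a run of letters and not a shown binding site.

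Csf1 (chromosome 3, 107741048 to 107760469, minus strand), the broadly made ligand of Csf1r, stood at 1.21, 0.711, 0.592 and 0.772 TPM in control embryos 1 to 4. In cKO it stood at 2.34, 2.59, 1.51 and 3.04 TPM, a mean of 2.37 ± 0.643 (SD, n = 4) against 0.822 ± 0.271 in control. In dKO it stood at 0.752, 0.940, 1.12 and 1.01 TPM, a mean of 0.957 ± 0.156. Every cKO embryo lay above every control and every dKO embryo, and dKO overlapped control. Csf1 rose in cKO by 0.88 ± 0.15 (limma, adjusted p = 0.00179), or 0.69 after rescaling (adjusted p = 0.0139), and the ratio of mean TPM was 2.88. From cKO to dKO it fell by 0.77 (difference -0.77 ± 0.15, limma adjusted p = 0.00281), or -0.56 after rescaling (adjusted p = 0.042). As deposited and without the filter, which Csf1 passed only through cKO, the rise and the fall had limma adjusted p = 0.00472 and 0.0068. Between dKO and control the difference was 0.11 ± 0.15 (adjusted p = 0.741).

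Il34 (chromosome 8, 110741829 to 110805924, minus strand), the neuronal ligand of the same receptor, was listed at low levels throughout. Control embryos 1 to 4 had 0.0622, 0.289, 0.159 and 0.118 TPM, cKO embryos 0.391, 0.500, 0.232 and 0.296, and dKO embryos 0.124, 0.102, 0.187 and 0.230. The cKO embryos overlapped control through control embryo 2, and all 4 lay above dKO, the lowest by a narrow margin. The differences were 0.23 ± 0.08 for cKO minus control and -0.22 ± 0.08 for dKO minus cKO (limma adjusted p = 0.0759 and 0.0742), and neither passed the test. After rescaling they were 0.16 and -0.15 (adjusted p = 0.405 and 0.382). Leaving out control embryo 2 or cKO embryo 3 brought the first to an adjusted p of 0.0462 or 0.0492 as deposited, and leaving out cKO embryo 3 brought the second to 0.0472. Il34 overlaps the opposite-strand genes Gm15894 and Gm15895, of which the second has a mean of 0.0754 TPM, and whether the counting used strand is not given in the sources used here.

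Tgfb1 (chromosome 7, 25687002 to 25705077, plus strand), the factor that maintains microglia once activated from its latent form, stood at 0.108, 0.128, 0.111 and 0.0492 TPM in control embryos 1 to 4. The cKO embryos 1 to 4 had 0.252, 0.247, 0.214 and 0.293 TPM, and the dKO embryos had 0.0717, 0.359, 0.0743 and 0.0725 TPM. All cKO embryos lay above all controls, and dKO embryo 2 alone lay above every other embryo while the other 3 dKO embryos lay within the control range. The differences were 0.19 ± 0.07 for cKO minus control and -0.14 ± 0.07 for dKO minus cKO (limma adjusted p = 0.11 and 0.233), and neither passed the test. In a fit of cKO and control alone the first did pass (adjusted p = 0.0141). Without dKO embryo 2 they were 0.19 and -0.22, with adjusted p = 0.00627 and 0.00445. After rescaling with all embryos the adjusted p was 0.436 and 0.578.

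Csf1, Il34 and Tgfb1 all act on receptors whose genes were measured too. Csf1r had means of 0.538 TPM in controls, 1.75 in cKO and 0.842 in dKO, and rose in cKO by 0.84 (limma adjusted p = 0.000971), or 0.67 after rescaling (adjusted p = 0.0129). As deposited and without the filter, which Csf1r passed only through cKO, the rise had limma adjusted p = 0.00212. Ptprz1, a phosphatase that also binds Il34, had means of 4.08, 5.91 and 3.20 TPM, and its cKO rise of 0.43 (adjusted p = 0.0245) was 0.18 after rescaling (adjusted p = 0.614). Tgfbr2 had means of 1.03, 2.09 and 1.47 TPM and rose in cKO by 0.61 (limma adjusted p = 0.00263), or 0.42 after rescaling (adjusted p = 0.0349). Tgfbr1 had means of 8.06, 10.3 and 7.48 TPM, and its cKO rise of 0.32 (adjusted p = 0.0266) was 0.04 after rescaling (adjusted p = 0.883). Among 20 genes for release, latency and activation of the signals, 12 passed the filter and 4 rose in cKO, where 34.3% of all 11764 genes rose. After median-shift centring, which subtracts each library's median shift, 0 were higher and 1, Itgb8, was lower, where 3.72% of all genes were higher and 2.96% lower. Itgb8, a subunit of an integrin that activates latent Tgfb1, had means of 5.72 TPM in control and 4.87 in cKO. Of 11 genes of the TGF-beta pathway, 7 passed the filter; 2 rose in cKO as deposited and 0 after centring, beside the same shares of all genes. In dKO against control 0 of the 7 were called by limma, with 0 at an unadjusted p under 0.05, and without the filter 0 of 11 were called as deposited or rescaled, with 4 and 5 at an unadjusted p under 0.05.

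The CC chemokines showed the highest relative rises. Ccl3 (chromosome 11, 83647844 to 83649355, minus strand) stood at 0, 0.0306, 0.0629 and 0.0670 TPM in control embryos 1 to 4. The 4 cKO values were 1.34, 1.21, 0.726 and 1.10 TPM, and the dKO embryos had 0.282, 0.347, 0.255 and 0.392 TPM. The 3 groups did not overlap, with cKO highest and control lowest. The means were 0.0401 ± 0.0313, 1.10 ± 0.264 and 0.319 ± 0.0621 TPM (SD, n = 4), so the cKO mean was 27.3 times and the dKO mean 7.95 times the control mean. Ccl3 rose in cKO by 1.00 ± 0.09 (limma adjusted p = 0.000136), or 0.89 after rescaling (adjusted p = 0.000314), and fell by 0.66 from cKO to dKO (adjusted p = 0.0017), or by 0.52 after rescaling (adjusted p = 0.0157).

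Ccl3 was the 1 member whose dKO embryos all lay above all control embryos, where 8.28% of all 39624 genes had groups that did not overlap, 3.69% with dKO higher. The difference of 0.34 ± 0.09 did not pass the test (limma adjusted p = 0.11), nor did 0.37 after rescaling (adjusted p = 0.0595). With a pseudocount of 0.1 in place of 1 it was 1.60 (adjusted p = 0.00635), and in a fit of these 2 groups alone the adjusted p was 0.0258, both past the threshold. Leaving out cKO embryo 3, which has the lowest Ccl3 of its group, also gave an adjusted p of 0.0258.

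Ccl4 (chromosome 11, 83662584 to 83664683, plus strand), a related chemokine gene that lies near Ccl3, was listed at 0 in control embryos 1, 2 and 4 and at 0.0759 TPM in control embryo 3. The cKO embryos had 0.370, 0.218, 0.275 and 0.389 TPM. The dKO embryos had 0.0425, 0, 0 and 0.0395 TPM. Every cKO embryo lay above every control and dKO embryo, and control and dKO overlapped at 0. Ccl4 rose in cKO by 0.36 ± 0.04 (limma adjusted p = 0.000746), or 0.31 after rescaling (adjusted p = 0.00185), and fell by 0.36 from cKO to dKO (adjusted p = 0.000842), or by 0.31 after rescaling (adjusted p = 0.0037). Between dKO and control its difference was 0.00 ± 0.04 (adjusted p = 1).

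Within cKO embryos Ccl3 was 3.62, 5.58, 2.64 and 2.84 times Ccl4 in TPM. In the 2 dKO embryos where Ccl4 was listed above 0 the ratio was 6.63 and 9.93. In the 1 control embryo with both above 0, Ccl3 lay below Ccl4.

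Ccl2 (chromosome 11, 82035571 to 82037453, plus strand), a monocyte attractant, stood at 0.0514, 0.0284, 0.0292 and 0 TPM in control embryos 1 to 4. In cKO it stood at 0.213, 0.209, 0.434 and 0.214 TPM, and in dKO at 0.0982, 0, 0.0592 and 0.0606 TPM. All cKO embryos lay above all control and dKO embryos, with cKO embryo 3 apart from the other 3. Ccl2 rose in cKO by 0.30 ± 0.05 (limma adjusted p = 0.00594), or 0.26 after rescaling (adjusted p = 0.0343). It was called lower in dKO than in cKO as deposited, at -0.26 ± 0.05 (limma adjusted p = 0.00872), but not after rescaling, at -0.22 (adjusted p = 0.0685). Quantile normalization ended both calls, at 0.21 (adjusted p = 0.0563) and -0.17 (adjusted p = 0.101). The dKO and control groups overlapped, with a difference of 0.04 ± 0.05 (adjusted p = 0.824).

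Ccr1 and Ccr2, receptors of Ccl3 and Ccl2, were listed at low levels. Ccr1 had means of 0.219 TPM in controls, 0.633 in cKO and 0.220 in dKO, with a cKO rise of 0.42 as deposited (limma adjusted p = 0.00931) and 0.33 after rescaling (adjusted p = 0.0733). Ccr2 had means of 0.0242, 0.0966 and 0.0327 TPM, and its cKO rise of 0.10 (adjusted p = 0.036) was 0.08 after rescaling (adjusted p = 0.158).

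**Figure D2:**
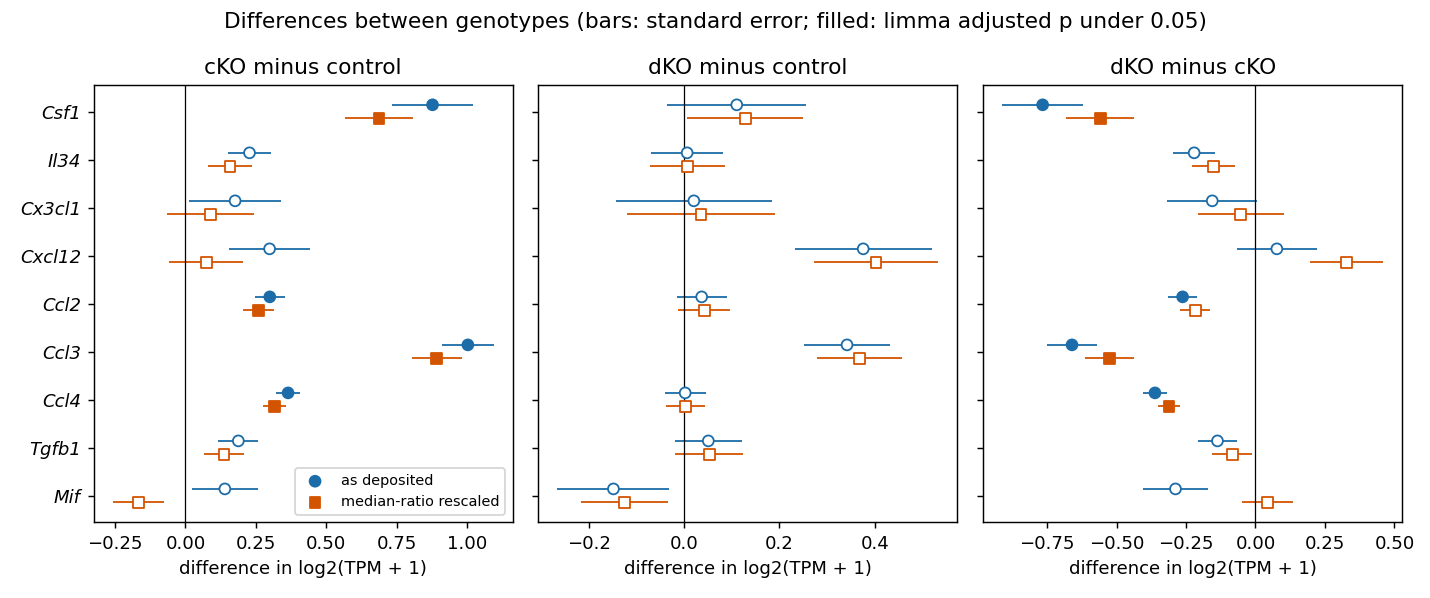
Difference in log2(TPM + 1) of each member for the 3 comparisons, with bars of 1 standard error; circles show values as deposited, squares values after median-ratio rescaling, and filled symbols an adjusted p under 0.05 in limma. Csf1, Ccl2, Ccl3 and Ccl4 are filled in cKO minus control under both scalings, no member is filled in dKO minus control, and Ccl2 is filled in dKO minus cKO only as deposited.

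Cxcl12 (chromosome 6, 117168535 to 117181367, plus strand), the ligand that guides microglia, interneurons and Cajal-Retzius cells, stood at 3.60, 2.12, 1.95 and 2.05 TPM in control embryos 1 to 4. The cKO embryos had 2.87, 2.83, 3.23 and 3.73 TPM, and the dKO embryos had 2.86, 3.62, 3.09 and 4.02 TPM. Control embryo 1 lay within the range of both mutants, and the other 3 control embryos lay below every mutant embryo. The differences of 0.30 ± 0.14 for cKO and 0.38 ± 0.14 for dKO against control did not pass the test (limma adjusted p = 0.112 and 0.156), and the mutants differed by 0.08 ± 0.14 (adjusted p = 0.67). After rescaling the cKO difference was 0.07 (adjusted p = 0.841) and the dKO difference 0.40 (adjusted p = 0.16). Without control embryo 1 both passed as deposited with the filter, at 0.45 for cKO (adjusted p = 0.0123) and 0.52 for dKO (adjusted p = 0.0235). Rescaled with the filter and without that embryo, the dKO difference of 0.53 passed (limma adjusted p = 0.0109, against 0.0755 with all embryos). The cKO difference of 0.21 did not pass in that fit (adjusted p = 0.257). In the fit without the filter the dKO difference as deposited did not pass, with all embryos (adjusted p = 0.299) or without control embryo 1 (adjusted p = 0.0599).

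Control embryo 1 also had the highest summed markers of meninges, endothelium and pericytes among the controls. This was not particular to these lists. The embryo was also the highest control for markers of microglia, macrophages at the brain's borders, intermediate progenitors, radial glia and red blood cells. For neuronal and Cajal-Retzius markers it was the lowest control, at 291 and 17.2 TPM. The summed TPM of 12 meningeal markers was 68.7 in control embryo 1 and 37.3 to 44.9 in the other 3 controls, against 72.2 to 86.8 in cKO and 62.2 to 86.1 in dKO. The part of meninges in the Cxcl12 values was not tested. Of the Cxcl12 receptors, Cxcr4 had means of 10.5 TPM in controls, 16.0 in cKO and 12.02 in dKO, with a cKO rise of 0.56 as deposited (limma adjusted p = 0.00284) and 0.28 after rescaling (adjusted p = 0.0992). Ackr3, the scavenger receptor, had means of 1.74, 2.03 and 1.66 TPM and was not called (adjusted p = 0.265 for cKO minus control).

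Cx3cl1 (chromosome 8, 94772009 to 94782427, plus strand) stood at 0.913, 0.178, 0.159 and 0.229 TPM in control embryos 1 to 4. In cKO it reached 0.334, 0.296, 0.689 and 0.791 TPM, and in dKO it reached 0.273, 0.413, 0.328 and 0.425 TPM. Control embryo 1 had the highest value of all 12, and the other 3 controls lay below every mutant embryo. The differences were 0.18 ± 0.16 for cKO minus control, 0.02 ± 0.16 for dKO minus control and -0.16 ± 0.16 for dKO minus cKO (limma adjusted p = 0.502, 1 and 0.548). Without control embryo 1 the cKO difference was 0.35 (adjusted p = 0.0901). Its receptor Cx3cr1, found on microglia, moved far more: its means were 0.688 TPM in controls, 2.98 in cKO and 0.823 in dKO, with a rise of 1.23 in cKO (limma adjusted p = 4.8e-05), or 1.03 after rescaling (adjusted p = 0.000506). As deposited and without the filter, which Cx3cr1 passed only through cKO, the rise had limma adjusted p = 0.000165.

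Mif (chromosome 10, 75859353 to 75860240, minus strand) stood at 205, 146, 174 and 180 TPM in control embryos 1 to 4. The 4 cKO values were 192, 189, 169 and 226 TPM, and the dKO embryos had 176, 148, 153 and 155 TPM. All groups overlapped. Its difference of 0.14 ± 0.12 for cKO minus control (limma adjusted p = 0.361) turned to -0.17 after rescaling, and the -0.29 ± 0.12 for dKO minus cKO (adjusted p = 0.0756) turned to 0.04. The Mif values are uncertain, because 8 annotated genes share at least 90% identity with its transcript over 100 bases or more, and how shared reads were divided is not given in the sources used here. Of these the pseudogene Gm10169, at 99.1% identity, has a mean of 110 TPM. Summed with all 8, Mif reached 301 ± 38.6 TPM in controls, 333 ± 49.0 in cKO and 273 ± 17.4 in dKO, which overlap, and Mif held 58.5%, 58.4% and 58.0% of the sum. The other 8 members have 0 such genes. Cd74, the Mif receptor, had means of 0.0591 TPM in controls, 0.154 in cKO and 0.0662 in dKO, and was not called in cKO minus control (adjusted p = 0.0691).

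Taking the 20 receptor genes together, 8 passed the filter, and 6 of these rose in cKO as deposited and 4 after centring (Csf1r, Cx3cr1, Cxcr4 and Tgfbr2), where 34.3% and 3.72% of all genes rose. In dKO against control 0 of the 8 were called by limma, with 2 at an unadjusted p under 0.05, and without the filter 0 of 20 were called as deposited or rescaled, with 3 and 7 at an unadjusted p under 0.05. From cKO to dKO 7 fell as deposited and 1 after centring, where 38.8% and 3.83% of all genes fell. The 1 was Cx3cr1, which fell by 1.12 as deposited (limma adjusted p = 0.000127, or 0.000382 without the filter). Csf1r and Cx3cr1 are also microglial markers, so they belong to both counts. They passed the filter only through cKO, as each had a mean under 1 TPM in control and in dKO. Among all 20 receptors, without the filter, 8 rose in cKO as deposited and 3 after rescaling, where 11% and 1.5% of all genes rose.

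Markers of microglia moved with the members that rose. The summed TPM of 22 microglial markers ranged from 22.5 to 27.0 in controls, from 81.8 to 120 in cKO and from 26.7 to 36.4 in dKO, and no marker was at 0 in all libraries. Of 13 that passed the filter, 12 rose in cKO as deposited and 12 after centring, where 34.3% and 3.72% of all genes rose, and the median difference of the 13 was 1.62 as deposited. Some of the 13, among them Csf1r and Cx3cr1, passed the filter only through cKO, which raises that median. Without the filter the median of the 22 was 1.06 as deposited and 0.89 after rescaling. In those fits 18 of the 22 rose as deposited and 17 after rescaling, where 11% and 1.5% of all genes rose. C1qa, a complement subunit that microglia make in brain, had means of 2.64 TPM in controls, 14.5 in cKO and 3.86 in dKO. In dKO against control 1 of the 13 was called higher as deposited and 2 after centring, where 1.79% and 3.74% of all genes were. As deposited, limma's unadjusted p was under 0.05 for 7 of the 13. Without the filter 0 of 22 were called as deposited or rescaled, with 7 and 11 at an unadjusted p under 0.05. Markers of macrophages at the brain's borders summed to 7.65 to 9.43 TPM in controls, 19.2 to 25.5 in cKO and 9.03 to 14.2 in dKO, and endothelial markers to 23.0 to 30.4, 37.5 to 51.8 and 27.7 to 38.3 TPM. Markers of neurons, from which Cx3cl1 and Il34 are known, summed to 291 to 326 TPM in controls, 411 to 504 in cKO and 219 to 327 in dKO. Markers of Cajal-Retzius cells, early-born neurons of the cortical surface, summed to 17.2 to 23.6, 39.5 to 46.0 and 20.2 to 30.9 TPM. In each of these 5 lists every cKO sum lay above every control sum, as deposited. The same held for other lists, among them the markers of meninges, pericytes and radial glia and the receptor genes. After rescaling, without the filter, 4 of 8 border macrophage, 2 of 12 endothelial, 1 of 16 neuronal and 2 of 7 Cajal-Retzius markers rose in cKO. So did 0 of 12 meningeal, 2 of 8 pericyte and 0 of 12 radial glia markers and 3 of 20 receptor genes. Of the radial glia markers 2 fell, and the median difference of that list was -0.29. On that scale 1.5% of all 39624 genes rose, and 3.96% of the 11764 genes in the fit with the filter. In bulk tissue, fewer or more cells of a type and less or more RNA per cell cannot be told apart, and the part of these cell types in the members' values was not tested.

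Set against the microglial markers, the members behaved in different ways. Ccl3 per 100 TPM of summed microglial markers was 0, 0.126, 0.272 and 0.298 TPM in control embryos 1 to 4. It was 1.21, 1.01, 0.888 and 1.10 TPM in cKO and 1.05, 1.09, 0.717 and 1.08 TPM in dKO. Both mutants lay above every control on this scale, and they overlapped each other. The control ratios rest on Ccl3 values of 0 to 0.0670 TPM at unknown depth. The share of other genes that would separate on this scale was not computed.

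Csf1 on the same scale was 4.48, 2.92, 2.56 and 3.44 TPM in controls, 2.11, 2.15, 1.84 and 3.03 in cKO, and 2.81, 2.95, 3.16 and 2.78 in dKO, with all groups overlapping. Ccl4 per 100 TPM of markers lay between 0.181 and 0.388 TPM in cKO and between 0 and 0.159 in dKO, which do not overlap, while control embryo 3 stood at 0.328. Cxcl12 was lower in cKO on this scale, with 8.42 to 13.3 TPM in control, 2.35 to 3.94 in cKO and 8.69 to 11.4 in dKO. So was Mif, with 599 to 802, 157 to 226 and 425 to 660 TPM. Cx3cl1 overlapped between cKO and control and lay higher in dKO than in cKO. These ratios are descriptions with no test, and the mean of their denominator was 4.26 times as high in cKO as in control. The ratio of a member that rose less than the denominator therefore falls.

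**Figure D3:**
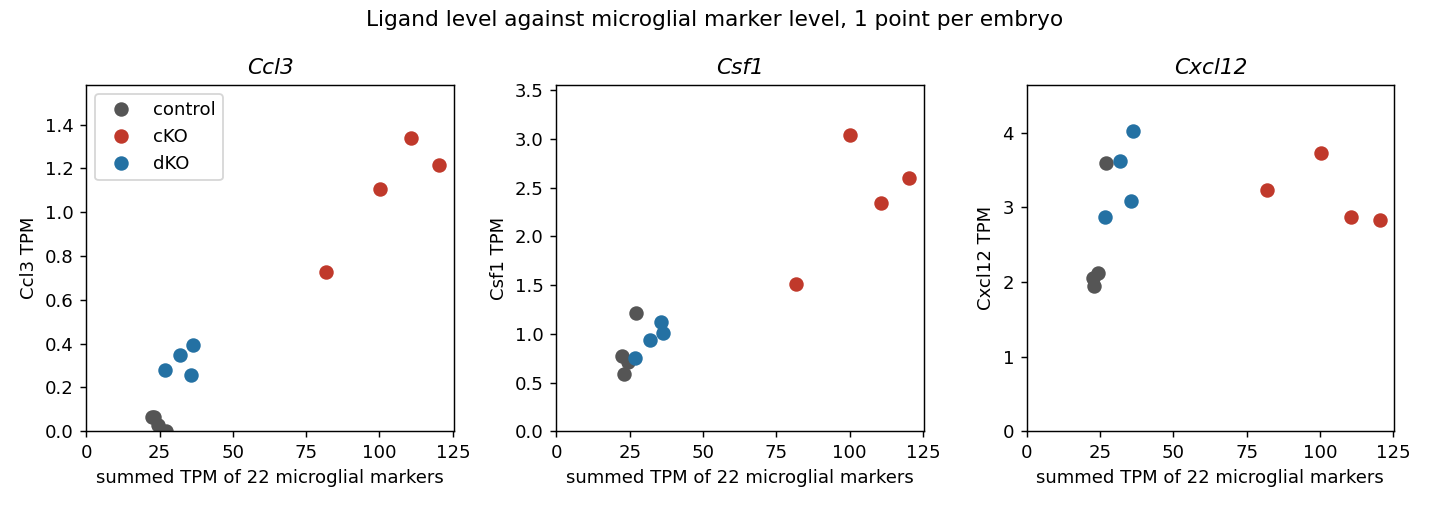
TPM of Ccl3, Csf1 and Cxcl12 (vertical axes, linear) against the summed TPM of 22 microglial markers (horizontal axis), with 1 point for each of 12 embryos coloured by genotype. Ccl3 in dKO (0.255 to 0.392 TPM) lies above control (0 to 0.0670 TPM). Their marker sums overlap only through dKO embryo 1 (26.7 TPM) and control embryo 1 (27.0 TPM), and the other dKO sums lie above every control sum. Cxcl12 in cKO overlaps dKO although the marker sums differ.

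The genes whose pattern over the 12 embryos was most like that of a member were sought among 9993 protein-coding genes, on centred log2 values, as a description. For Csf1 they were Apod, the complement gene C1qc and the macrophage marker Lyve1 (Pearson r = 0.961, 0.943 and 0.941 over 12 libraries that share the genotype difference). For Cxcl12 they were Nolc1, Pcca and Rpl7a (r = 0.919, 0.919 and 0.897), and for Mif they were Mdk, Rcc1 and Ckb (r = 0.891, 0.885 and 0.879). Without centring Apod was the only one of these among the top 3 for Csf1, Pcca the only one for Cxcl12, and none for Mif.

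Among 30 other attractant genes, 6 passed the filter and 3 rose in cKO as deposited, 1 of them, Gas6, also after centring, where 34.3% and 3.72% of all genes rose. Gas6, a ligand of the TAM receptors by which macrophages clear dying cells, had means of 1.66 ± 0.324 TPM in controls, 4.55 ± 0.570 in cKO and 2.30 ± 0.423 in dKO (SD, n = 4). It rose in cKO by 1.07 ± 0.12 (limma adjusted p = 0.00015) and fell by 0.75 from cKO to dKO (adjusted p = 0.00112). Without the filter 28 were above 0 in some library; 10 rose in cKO as deposited and 4 after rescaling, where 11% and 1.5% of all genes rose. Of the 28, 0 were called in dKO against control in either fit, with 4 and 5 at an unadjusted p under 0.05.

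**Figure D4:**
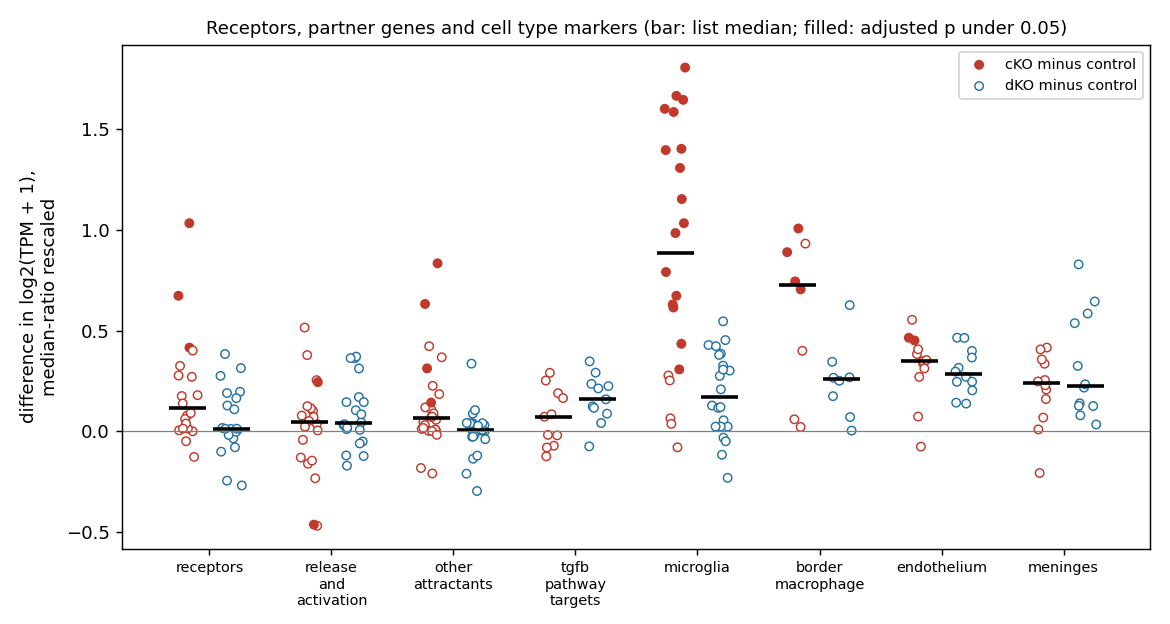
Difference from control in log2(TPM + 1) after median-ratio rescaling for genes of 8 lists, with 1 point per gene, cKO in red and dKO in blue, filled where limma's adjusted p is under 0.05 and with the list median as a bar. The microglial markers have the highest cKO points and 17 of 22 are filled, while in the receptor list 3 of 20 are filled and in the TGF-beta list 0 of 11.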

How the data were processed

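The authors deposited 1 table per embryo, and its values are TPM as judged from the values (each table sums to 1000000); no header names the unit. The protocols in the labels describe RNA extracted from dissected dorsal telencephalon and sequenced as total RNA. Per the submitters' processing notes, HISAT2 and the build mm10 were used; the quantifier, annotation, handling of shared reads and use of strand are not given in the sources used here. Depth is unknown.

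On the log2(TPM + 1) scale, all 12 libraries entered 1 fit in limma 3.58.1 (lmFit, eBayes with trend; R 4.3.3), over the genes whose mean reached 1 TPM and, for the 6 members under it, over all genes above 0. A gene was called at an adjusted p (Benjamini-Hochberg) under 0.05. The procedure was tested on simulated data. Alternatives were a filter of 5 TPM, a pseudocount of 0.1, median-shift centring, protein-coding rescaling (RefSeq types, 21373 symbols), quantile normalization, fits of 2 groups, a replicate block and leaving out each embryo. Median-ratio rescaling (factor from 11527 genes) and its combinations, and the fits that combine no filter with another change, were added after seeing the data.

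Coordinates are from GENCODE M21 (build GRCm38), which held 54106 of 54735 symbols. Genes named are the members, their receptors, up to 4 genes per list and contrast with the largest differences among those called both as deposited and centred (only those that bear on the members are printed, and 1 result is not reported here), and the 3 most similar genes per member above 1 TPM; Ccr1 and genes named from counts without the filter were picked after their values were seen. The members and lists were chosen with earlier results of these data known. Tables and plots used Python 3.11.15, pandas 2.3.3 and matplotlib 3.10.9.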

Additional observations from a re-analysis of the deposited data

Results flagged for a closer look

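In 5 of 27 sets of 4 embryos (9 members in 3 genotypes) 1 embryo stood apart from the other 3 by Dixon's ratio, the gap to the nearest embryo divided by the whole range (above its 95% critical value for 4 samples). Chance gives about 1 in 20, or 1.35 of 27. In 1 of the 5, Ccl4 in control, the other 3 embryos are listed at 0, so the ratio is 1 whatever the value of the fourth. Leaving it out gives 4 of 26 sets, where the same rough guide gives 1.3. Control embryo 1 was high in Cx3cl1 (0.913 TPM, ratio 0.906) and in Cxcl12 (3.60 TPM, ratio 0.894). It also had the highest Csf1 among the controls (1.21 TPM). Control embryo 3 was the only control with Ccl4 above 0 (0.0759 TPM, ratio 1). In cKO, embryo 3 was high in Ccl2 (0.434 TPM, ratio 0.978), while its Csf1 (1.51 TPM) and Ccl3 (0.726 TPM) were the lowest of the group. In dKO, embryo 2 was high in Tgfb1 (0.359 TPM, ratio 0.991).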

How the results depend on the processing

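Depth is unknown, and 6 of 9 members lie under 1 TPM. Of 579 refits of single members, 523 kept direction and side of the threshold, 9 lost a call, 14 gained one and 33 changed sign, 14 of them among the 324 fits that left out an embryo; the cause was not tested. For cKO minus control, the 1 member called with the filter became 2 without control embryo 1, 0 with a mean of at least 5 TPM (only Mif is left), 4 without the filter, and, without the filter, 2 with median-shift centring, 4 with protein-coding rescaling, 4 with median-ratio rescaling, 4 with a pseudocount of 0.1, 5 without control embryo 1 and 3 with rescaling and without control embryo 1. For dKO minus control, 0 became 1 (Cxcl12) without control embryo 1, as deposited or rescaled, 1 without the filter with both changes, and 1 (Ccl3) without the filter at a pseudocount of 0.1. For dKO minus cKO, 1 became 2 without cKO embryo 3 (Mif, adjusted p = 0.0442), 0 with a mean of at least 5 TPM, 4 without the filter, and, without the filter, 3 with centring, 4 with protein-coding rescaling, 3 with median-ratio rescaling, 4 without control embryo 1, 3 with both and 4 with a pseudocount of 0.1. Leaving out each embryo gave 1 to 2, 0 to 1 and 1 to 2 members called.

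Median-shift centring subtracts a constant and cannot be read for genes near 0: without the filter it called 20661 genes lower in cKO. Under it the cKO minus control difference was -0.022 for Il34, -0.073 for Cx3cl1, -0.061 for Tgfb1 and -0.11 for Mif, and the dKO minus cKO difference 0.048 for Il34, 0.11 for Cx3cl1, 0.0066 for Ccl2 and 0.13 for Tgfb1. Mif in cKO was -0.014 with protein-coding rescaling, -0.17 with median-ratio rescaling (-0.17 at a pseudocount of 0.1, -0.12 without control embryo 1), and in dKO minus cKO it was 0.043 in these 3 rescaled fits. Quantile normalization gave 0.025 for Cx3cl1 in dKO minus cKO and -0.0026 for Ccl4 in dKO minus control. For dKO minus control, leaving out each embryo gave -0.033 to 0.060 for Il34, -0.049 to 0.19 for Cx3cl1, -0.0078 to 0.029 for Ccl4 and -0.034 to 0.080 for Tgfb1, and rescaling without control embryo 1 gave -0.038 for Il34 and -0.0052 for Ccl4.

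Replicate numbers in the titles recur across genotypes, but same-numbered embryos did not deviate together (r from -0.0954 to 0.0745 over 12 pairs, 0 over 0.1). With the replicate number as a block, the fit with the filter called 1, 0 and 1 members, as without it.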

Other observations

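Of the 30 other attractant genes, those called in cKO against control under the rescaled fit without the filter, apart from Gas6, were Lgals3, Ccl6 and Tnf, named after their values were seen. Lgals3 encodes galectin-3, a lectin that macrophages release, and had means of 0.141 TPM in controls, 0.917 in cKO and 0.124 in dKO, with a rise of 0.63 after rescaling (limma adjusted p = 0.0174). The chemokine Ccl6 had means of 0.127, 0.476 and 0.187 TPM (rise of 0.31, adjusted p = 0.0169). The cytokine Tnf was listed at 0 in all 4 controls and had means of 0.122 TPM in cKO and 0.0257 in dKO (rise of 0.14, adjusted p = 0.000917). From cKO to dKO, Lgals3 fell by 0.65 (adjusted p = 0.0198) and Tnf by 0.10 (adjusted p = 0.0123) on the same scale, and Ccl6 differed by -0.22 (adjusted p = 0.0701).

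Among the genes for latency and activation of TGF-beta, Ltbp2, which encodes a matrix protein related to the latent TGF-beta binding proteins, had means of 0.0138 TPM in controls, 0.235 in cKO and 0.0427 in dKO. It was higher in cKO than in control by 0.24 after rescaling (limma adjusted p = 0.000161). Nrros, which presents latent Tgfb1 on microglia, had means of 0.790, 1.61 and 1.28 TPM; its cKO rise of 0.55 as deposited (adjusted p = 0.0112 without the filter) was 0.38 after rescaling (adjusted p = 0.0924).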
